A study of Rattus norvegicus with 4 samples.

Results

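Of 6240 features on a rat microarray, 101 had a deposited log ratio above 0 on all 4 arrays that compared growth hormone-treated with untreated hepatocytes, with a mean of at least 0.3 at 48 h and again at 24 h. These 101 features are the subject here and are called the member features. They make up 1.62% of all features and 8.39% of the 1204 features that had a value on every array. Of the 6240 features, 2994 had no value on any array. The members were chosen by these 4 ratios of each feature, so the ratios are given as a description and are not evidence that these features responded. Primary rat hepatocytes, the liver's own metabolic cells freshly isolated and kept in culture, were treated with bGH (by its usual reading, bovine growth hormone) at 100 ng/ml for 48 h or 24 h. Untreated cells harvested at the same time were the counterpart. All cells grew on commercial Matrigel, a basement membrane extract, in a culture medium (Williams E) supplemented with vitamin C and insulin, which was at a concentration called high in the 24 h labels alone. Each sample is a 2-channel comparison in which treated and untreated RNA are hybridised together, with 2 samples at 48 h and 2 at 24 h.

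By their labels, the 48 h arrays had the treated RNA in channel 1 (first array) and channel 2 (second array), and the 24 h arrays in channel 2 (forward array) and channel 1 (reverse array). Both 48 h labels name the dye Cy3 for it. The sources used here do not give whether treated or untreated RNA is on top in the deposited ratios. A positive ratio is therefore not known to mean more RNA in treated cells, and no direction of response is stated below. The labels speak of different batches of cells and, for the reverse 24 h array, also of the same batch. The spread between arrays may thus be technical, between batches of cells or both. The SDs, SEs and p-values below do not tell these apart. In RNA from whole cultures, a change in the number of cells of a type and a change in RNA per cell cannot be told apart.

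Growth hormone acts on hepatocytes through its receptor at the cell surface, which switches on the kinase JAK2 and the transcription factor STAT5b. In rat liver this pathway is known for driving Igf1, which encodes the circulating growth factor of the same name, for inducing its own brakes Socs2 and Cish, and for setting the sex-specific pattern of cytochrome P450 genes such as Cyp2c11 and Cyp2c12. Whether any member feature measures one of these genes could not be determined. Features carry plate-and-well IDs, and 0 of the 101 member IDs were found among the gene symbols, synonyms and accessions that RefSeq lists for the rat (assembly GRCr8). Members are therefore given by ID, with no gene name, cell type or sequence, and neither growth hormone targets nor markers of hepatocytes and other liver cells could be looked up.

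The member features had small ratios as a rule and large ones in a few cases. Their median ratio was 0.51 at 48 h and 0.61 at 24 h, which is a factor of 1.42 and 1.52 if the log base is 2. Over the 1204 features the medians were 0.00093 at 48 h and 0.046 at 24 h. The mean over the 4 arrays was at least 1 for 18 members, from 0.5 to below 1 for 42, and below 0.5 for 41. It was at least 2 for 4 members. In the plot of members by rank, the mean drops steeply over the first few features and more slowly after them.

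**Figure D1:**
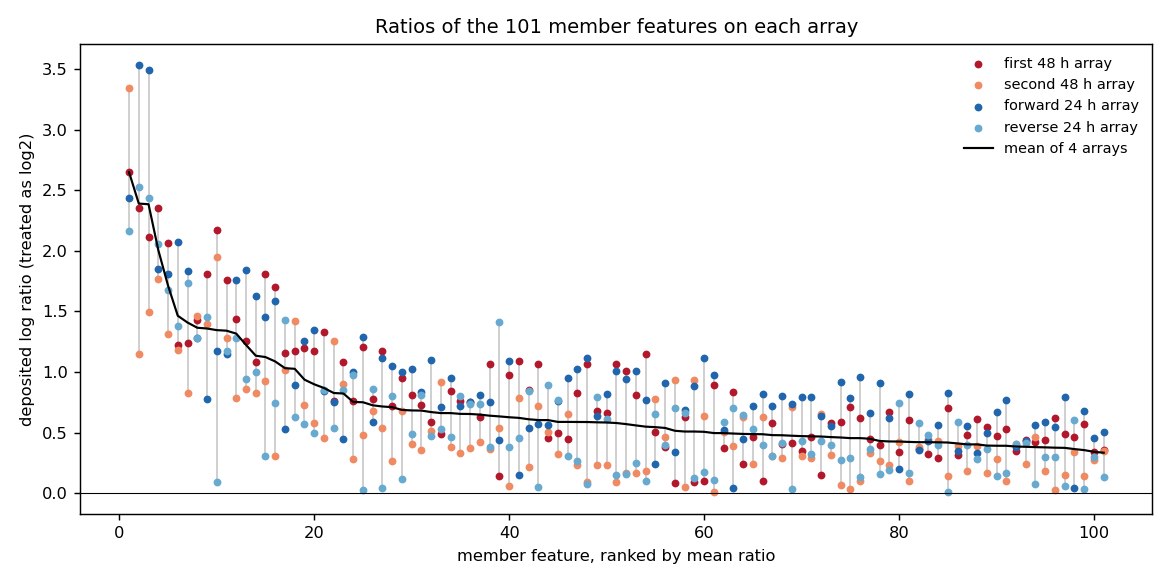
Deposited log ratio of each of the 101 member features (y axis, treated as log2) against its rank by mean (x axis), with 1 point per array, a grey line from the lowest to the highest array and a black line for the mean of the 4 arrays. The mean runs from 2.65 at rank 1 to 0.33 at rank 101, and 25 members have a point below 0.1.

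RNABT12 had the highest mean. Its ratios were 2.65 and 3.35 on the first and second 48 h arrays, and 2.43 and 2.17 on the forward and reverse 24 h arrays. All 4 values lay above 2, and both 48 h arrays lay above both 24 h arrays. The mean was 2.65 ± 0.51 (SD over 4 arrays), a factor of 6.28 if the base is 2.

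RNABK02 ranked next by mean. Its ratios were 2.36 and 1.15 at 48 h, and 3.53 and 2.52 at 24 h. The second 48 h array was far below the other three, and both 48 h arrays lay below both 24 h arrays. RGIAJ79 had 2.12 and 1.50 at 48 h, and 3.49 and 2.44 at 24 h, the same order of the 4 arrays as RNABK02. These IDs belong to different plates. The mean over the 4 arrays was 2.39 for RNABK02 and also 2.39 for RGIAJ79, with an SD of 0.98 and 0.84.

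The steadiest of the 20 highest members was RNABL60, chosen for its small spread. Its ratios were 1.43 and 1.47 at 48 h, and 1.28 and 1.28 at 24 h. The 4 arrays lay within 0.2 of each other, with a mean of 1.37 ± 0.096 (SD over 4 arrays). RNABP39 was the next steadiest, with 2.35 and 1.77 at 48 h, and 1.85 and 2.06 at 24 h. The arrays of its times overlapped. Of the 101 members, 8 had every ratio at 1 or above: these 5 and RNAA84, RNABQ07 and RNAA80.

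Most members were uneven across arrays. The median SD over the 4 arrays was 0.31 among members, about the size of the threshold on the means, and also 0.31 among the other 1103 features with 4 values. The lowest of the 4 ratios had a median of 0.27, and 45 members had all 4 ratios at 0.3 or above. In 25 members the lowest ratio was below 0.1, so they met the demand for 4 positive ratios by a small margin. Ratios below 0.1 stood on the second 48 h array in 11 members, the first 48 h array in 3, the reverse 24 h array in 10 and the forward 24 h array in 2.

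The same arrays kept further features out. Of 129 features whose means reached 0.3 at both times, 28 missed membership because at least 1 ratio was not above 0. The second 48 h array was at or below 0 in 16 of these 28, the first 48 h array in 1, the reverse 24 h array in 9 and the forward 24 h array in 3. Among the 264 features with 4 positive ratios, 163 were not members. Of these 264, 31 reached the threshold at 48 h only, 82 at 24 h only, and 50 at neither time.

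The threshold falls in a dense part of the distribution, where features inside and outside it look alike. RNABC38, the nearest inside, had 0.61 and 0.39 at 48 h, and 0.33 and 0.28 at 24 h. RNABU15, the nearest outside, had 0.30 and 0.29 at 48 h, and 0.12 and 0.60 at 24 h. Their lower time means were 0.304 and 0.299, and the 48 h arrays differed by 0.22 for RNABC38 and by 0.010 for RNABU15. The next inside were RNABY17 and RGIAZ20, with lower time means of 0.304 and 0.305, and the next outside were RGIAB90 and RNABQ91, with 0.295 each. In all, 20 members had a lower time mean within 0.05 above the threshold, and 31 features with 4 positive ratios had one within 0.05 below it.

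The arrays did not contribute equally. The forward 24 h array had a value for 1306 of the 6240 features, and the other arrays for 2406 to 2790. It thus limited most which features had 4 values. Members ran from 0.084 to 2.65 (median 0.67) on the first 48 h array, and from 0.0055 to 3.35 (median 0.39) on its partner. On the forward 24 h array they ran from 0.039 to 3.53 with a median of 0.79, and on the reverse 24 h array from 0.0061 to 2.52 with a median of 0.46. Of the 101 members, 52 had their highest ratio on the forward 24 h array, and 48 had their lowest on the second 48 h array. With all arrays brought to the same median absolute deviation, these counts were 11 and 24. The order of the arrays among members thus depends on the scaling.

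**Figure D2:**
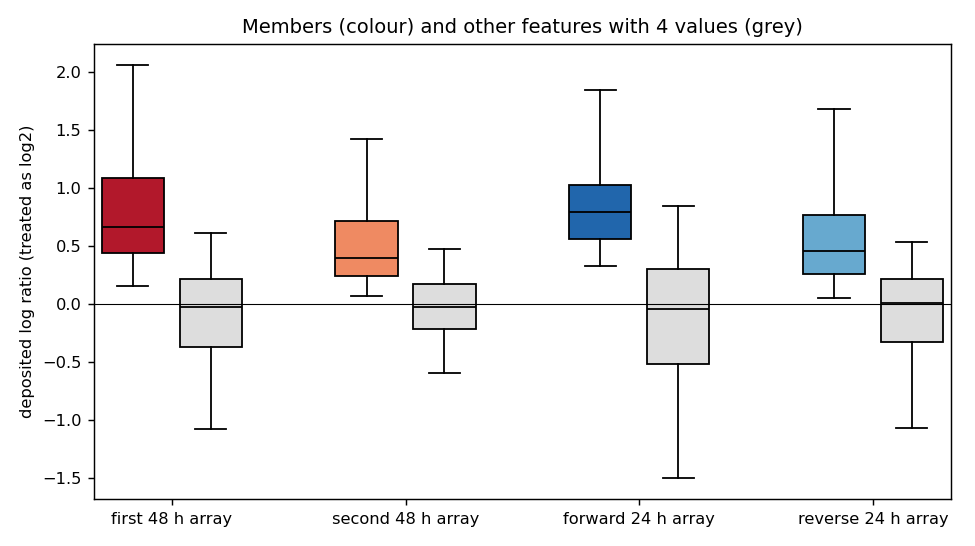
Deposited log ratios (y axis, treated as log2) of the 101 member features (coloured boxes) and the other 1103 features with 4 values (grey boxes) on each array, with boxes from the lower to the upper quartile, a line at the median and whiskers from the 5 to the 95 percentile. The member medians are 0.67 and 0.39 at 48 h and 0.79 and 0.46 at 24 h, and the other features are centred near 0 on every array.

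The member medians were in the same order as the spread of the arrays. Over the 1204 features the first 48 h array had an SD of 0.63 and the second 0.42, and the forward 24 h array had 0.84 and the reverse 0.57. Each time thus had a wider and a narrower array. Of the 101 members, 62 (61.4%) had the higher ratio on the wider array at both times, and 12 on the narrower array at both times. Over all 1204 features the counts were 407 (33.8%) and 406. The 117 features that meet the mirrored rule for negative ratios were the other way round, with 4 higher on the wider and 71 higher on the narrower array at both times. Both sets were chosen by the size of these same ratios. Positive choices thus tend to lie higher on an array of larger spread and negative ones lower, so nothing is read from these counts.

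With all arrays brought to the same median absolute deviation, 31 of the 101 members, in place of 62, had the higher ratio on the wider array at both times, and after quantile normalization 35 had it. With equal deviation, the member medians were 0.62 and 0.57 on the first and second 48 h arrays, and 0.54 and 0.48 on the forward and reverse 24 h arrays. By the labels, the wider arrays carried the treated RNA in channel 1 at 48 h and in channel 2 at 24 h. The part of the channel in this order was not tested.

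The design's question about time was whether the ratios at 48 h differed from those at 24 h. Fitted with limma across all 1204 features, the difference 48 h minus 24 h passed an adjusted p of 0.05 for 0 of the 101 members, against 0% of all features, where no adjusted p was below 0.16. Before adjustment, 3 members had a p under 0.05, against 6.56% of all features. The rule asked for positive means at both times, so large differences were made less likely by the choice itself. The median difference among members was -0.094, against -0.014 over all 1204 features. It turned to 0.064 with arrays of equal median absolute deviation, to 0.057 without the second 48 h array and to 0.055 without the forward 24 h array, so no order of the times can be read from it.

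**Figure D3:**
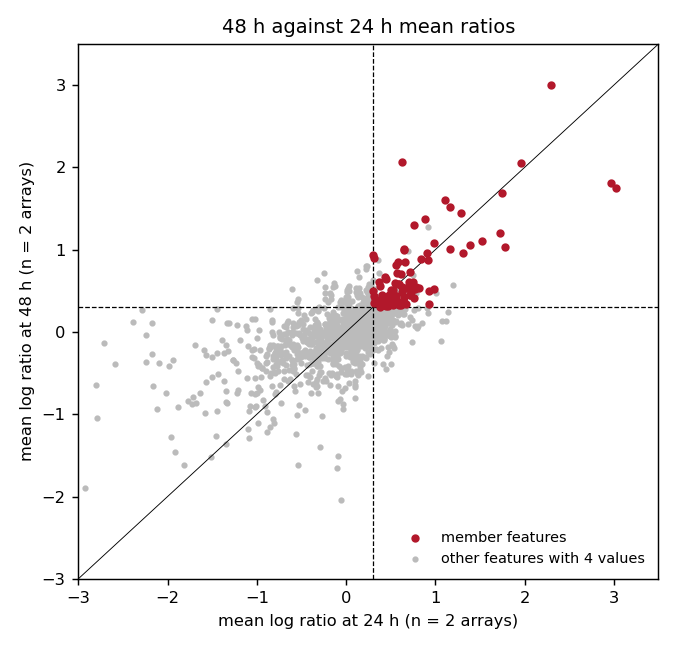
Mean log ratio of each feature at 48 h (y axis) against 24 h (x axis), n = 2 arrays each, with the 101 member features in red, the other features with 4 values in grey, dashed lines at the threshold of 0.3 and a solid line of equal ratios. Axes run from -3 to 3.5, and 4 features that are not members lie outside them. Members crowd near the corner of the thresholds, with RNABT12 highest on the 48 h axis and RNABK02 farthest right on the 24 h axis.

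In 76 of the 101 members the arrays of the 2 times overlapped. Both 48 h arrays lay above both 24 h arrays in 10 members, or 9.90%, against 17.0% of all 1204 features. Both lay below in 15 members, or 14.9%, against 18.6%. Both shares were below those of all features, and the choice of members can shape them.

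Among the 25 members without overlap, RNABP38 had the largest positive difference. Its ratios were 2.17 and 1.95 at 48 h, and 1.17 and 0.090 at 24 h. The reverse 24 h array was near 0 and the forward one was not, so the difference of 1.43 ± 0.40 (SE) rests in part on an uneven pair. It did not pass (limma adjusted p = 0.55). RNABT12 followed at 0.70 ± 0.33 (SE, limma adjusted p = 0.74).

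The most negative differences without overlap were those of RNABK02, at -1.27 ± 0.52 (SE), and RGIAJ79, at -1.16 ± 0.43. Neither passed, with a limma adjusted p of 0.72 for each. All 4 of these members kept ratios above 1 on average over their 4 arrays. The means at 48 h and 24 h correlated across the 101 members with r = 0.76 and Spearman rho 0.60. Over all 1204 features with 4 values they correlated with r = 0.64 and rho 0.63. Features of the same arrays are not independent, and the choice of members shapes their values.

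Feature position was not used by the rule. The IDs name 65 plates of 96 wells, and members came from 46 of them, with 20 plates holding a single member. The 15 plates with 3 or more members held 59 of the 101 members and 335 of the 1204 features with 4 values. These plates were picked by their number of members, so an excess is built in and nothing is read from it. Plate RGIAA held the most, with 9 members among 61 such features, or 14.8%. Plate RNABK held 6 of 33, RNAA held 4 of 12, RNAC 4 of 13, RNABT 3 of 7 and MKAE 3 of 5. These were named for their high share, and most have few such features. Over all plates the share was 8.39%. Some plates with many such features lay below it, such as RGIAE with 2 of 53, RGIAG with 1 of 46 and RGIAT with 0 of 26.

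**Figure D4:**
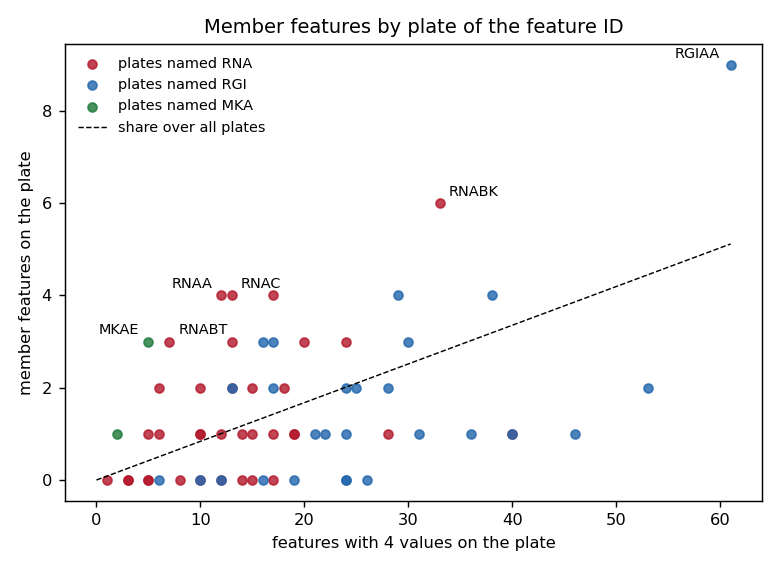
Number of member features (y axis) against the number of features with 4 values (x axis) for each of the 65 plates named in the feature IDs, coloured by the first letters of the plate name, with a dashed line at the share over all plates (8.39%). Plate RGIAA stands at the upper right with 9 members among 61 features, and RNAA, RNAC, RNABT and MKAE lie well above the line with few features each.

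The share also varied with the first letters of the ID. Among features with 4 values, 52 of 489 whose IDs start with RNA were members (10.6%), 45 of 708 that start with RGI (6.36%) and 4 of 7 that start with MKA. Few MKA features had 4 values at all, 7 of 192, against 489 of 3456 for RNA and 708 of 2592 for RGI. The meaning of the letters is not stated in those sources that were used.

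The 9 members on plate RGIAA had similar profiles. On the first 48 h array they ran from 0.60 to 1.07, with a median of 0.97, and on the second one from 0.059 to 0.36, with a median of 0.099. On the forward 24 h array they ran from 0.75 to 1.11, with a median of 0.96, and on the reverse one from 0.0061 to 0.38, with a median of 0.16. The wider and the narrower array did not overlap at either time among them, and the wider array was higher at both times in 9 of 9, against 53 of 92 members on other plates. This count was made after the values were seen and was not tested.

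The rest of plate RGIAA leaned the same way. Its other 52 features had medians of 0.22 and 0.0013 on the first and second 48 h arrays, and 0.12 and -0.12 on the forward and reverse 24 h arrays. In 31 of these 52 (59.6%) the wider array was higher at both times, against 33.8% of all 1204 features. Part of the profile of the RGIAA members is thus shared by features of the plate that are not members.

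Some members lay next to each other. Of 53 wells with 4 values next to a member on the same plate, 12 (22.6%) held a member. Next to the other features, 41 of 661 such wells did. These 12 are 6 pairs of neighbours. The neighbours of members had a median mean ratio of 0.18, against -0.0093 for the neighbours of other features. The first group holds the 12 members, whose means the rule itself set high, so nothing is read from this gap. Neighbours share their plate, and no test was made.

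RGIAA31 had 0.70 and 0.14 at 48 h, and 0.82 and 0.0061 at 24 h. Its neighbour RGIAA32 had 0.62 and 0.099 at 48 h, and 0.96 and 0.14 at 24 h. Both were high on the same arrays and low on the others. RGIAA68 and RGIAA69 were also higher on the first 48 h and the forward 24 h array, with 0.091 and 0.15 for RGIAA68 and 0.36 and 0.38 for RGIAA69 on the second 48 h and the reverse 24 h array. RGIBB85 and RGIBB86 were both lowest on the reverse 24 h array, at 0.11 and 0.023.

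Other pairs differed within. RGIAJ79 was among the highest members, with a mean over the 4 arrays of 2.39, while its neighbour RGIAJ80 had a mean of 0.59. RNABP38 and RNABP39 had nearly the same 48 h ratios, 2.17 and 1.95 for RNABP38 and 2.35 and 1.77 for RNABP39. They parted at 24 h, where the reverse array gave 0.090 for RNABP38 and 2.06 for RNABP39. The last pair, RNABO13 and RNABO14, had means of 0.60 and 0.83. Whether neighbouring features measure the same gene could not be determined from their IDs.

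With the limma fit of the mean over both times, 31 of the 101 members passed an adjusted p of 0.05 with a positive mean, against 2.66% of all 1204 features. The rule used this contrast, so nothing is read from the excess. The 31 had a median mean ratio of 1.03, from 0.59 to 2.65, and the 70 members that did not pass had a median of 0.48, from 0.33 to 1.12. The 31 make up all but 1 of the 32 positive calls among the 1204 features. The exception was RGIAQ41, with 0.15 and 0.11 at 48 h, and 1.31 and 0.94 at 24 h, which missed the threshold at 48 h. With a term for the channel of the treated RNA, 16 members passed, of 16 positive calls among the 1204 features. The count also fell without the first 48 h, the second 48 h or the forward 24 h array. Those fits leave a lone array at 1 time, so their counts are not given.

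The set depends on the sign of the columns and on its threshold. If the deposited values were channel 2 over channel 1 and had never been turned, the same rule would find 1 feature. That feature could not be among the 101. This reading turns the sign of the first 48 h and the reverse 24 h array, where every member is positive. Each of the 101 would then have opposite signs on the 2 arrays of each time. With every sign of the deposited values turned, the rule would find the 117 features of the mirrored rule. The files do not settle which reading holds. With a threshold of 0.2 there would be 174 features and with 0.5 there would be 46. Without the second 48 h array 163 features met the rule on the other three, 93 of them among the 101.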

How the data were processed

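The authors deposited signed log ratios, 1 per feature and sample, which are treated as log2 values of unstated processing. This is because they are centred near 0 and reach sizes a log10 ratio of scanner intensities would not. The sources used here do not give the log base, numerator, background correction or normalization. Channel intensities were not used here, so dim or saturated features could not be set apart. The small number of arrays limits the precision.

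The members were found by rule on the values as deposited, with no turning and no scaling. The members, lists and tests were chosen with earlier results of these data known. Features with 4 values went into a linear model (R 4.3.3, limma 3.58.1, lmFit and eBayes, 1 mean per time, shared spread, two-sided, Benjamini-Hochberg over 1204 features), tested on simulated data. The wider array of a time is that of larger SD over those features. Named members are the 3 highest by mean, the 2 largest differences of each sign without overlap of the times, the 2 steadiest of the 20 highest, and the 3 nearest inside and outside the thresholds. Further IDs (the RGIAA members, neighbouring wells, RGIAQ41, the members with all ratios at 1 or above and the features with 3 values) were chosen after their values were seen. Alternatives were other thresholds, scalings, sign readings, missing-value rules, array weights, robust moderation, a channel term and leaving out each array.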

Additional observations from a re-analysis of the deposited data

Results flagged for a closer look

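Features with a value on 3 arrays took no part in the comparisons. Of these 717, 38 (5.30%) met the rule on the values they had, against 8.39% of the features with 4 values. The number that chance gives is not known, and the same values chose them, so this is a description. The forward 24 h array was the missing one for 32 of the 38, and for 633 of the 717. The 38 had a median ratio, averaged over the 2 times, of 0.54, from 0.33 to 2.18. The highest, RNAB85, had 2.71 and 2.02 at 48 h, and 1.99 on the reverse 24 h array. RNAB75 had 1.79 and 1.63 at 48 h, and 1.83 on the reverse 24 h array. With 3 values, these features were not counted as members, and their mean at 24 h rests on 1 array in most cases.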

How the results depend on the processing

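The 101 members became 174 with a threshold of 0.2, 46 with 0.5 and 1 with the columns read as channel 2 over channel 1. The count was 88 after median centring, 97 with equal median absolute deviation (86 of them among the 101), 106 after quantile normalization (93 among the 101) and 139 with a value on at least 3 arrays. Leaving out 1 array in turn gave 75 to 163 features, the highest without the second 48 h array, and 67 to 96 of the 101 members met the rule again. The median ratio of the members at 48 h was 0.86 with a threshold of 0.5. It ranged from 0.39 to 0.67 without 1 array, and that at 24 h from 0.46 to 0.79. Their median difference between times ranged from -0.26 to 0.057 without 1 array and was 0.064 with equal median absolute deviation. Members called over both times numbered 16 with a channel term and 6 to 33 without 1 array, where the spread of the lone array was assumed equal to that of the other pair. For the difference between times, 0 members passed under every alternative run. The count higher on the wider array at both times moved to 31 with equal deviation and to 35 after quantile normalization, both chosen after seeing the data. It was 53 without plate RGIAA, also chosen then. For 12 named features, all 36 mean ratios under other scalings lay within 1 SD of the deposited one. That SD is the feature's own over the 4 arrays, from 0.080 for RGIAZ20 to 0.98 for RNABK02. It includes the difference between times, so the check is a loose one. A filter on low signals needs intensities and was not run. Causes of these moves were not tested.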
